A study of Homo sapiens with 1 sample.

Results

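The 10 miRNAs described here are mature products of 6 stem-loop precursors that are best known from blood cells, and they were read in DLD-1, a colorectal carcinoma line of epithelial origin. They were taken by name from the spots of human miRNA probes on 1 microarray, 10 of the 2549 miRNAs on it. In the study the circular RNA circLONP2 was knocked down or overexpressed in this line and its miRNAs were profiled. The culture read here had received the control siRNA of the knockdown experiment (si-NC, n = 1 array), and its total RNA was read in 1 colour, Cy3. The knockdown and overexpression arrays are not analysed here. With 1 array there was no second group and no biological replicate, so no p-value was computed, and each SD or error below is technical. Because RNA of the whole culture was read, few cells with much of a miRNA and many cells with little of it cannot be told apart.

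A miRNA is cut from a hairpin whose 5p and 3p arms can each give a mature strand, and bases 2 to 8 of that strand, the seed, select its targets. miR-142 is made throughout the blood lineages, miR-223 mainly in myeloid cells, and miR-150 in mature lymphocytes, where MYB is its best known target. miR-144 and miR-451a are cut from a shared precursor that is switched on in red cell formation, and miR-451a is unusual in that AGO2 and not Dicer finishes it, so its hairpin yields no ordinary second arm. miR-486 is abundant in red cells and muscle and lies in the gene of the red cell membrane protein ankyrin 1.

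The mature sequences of both arms of miR-142, miR-223 and miR-144 are shown because the array probes tell the arms of a hairpin apart. They were taken from RefSeq (GRCh38.p14) and are written 5′ to 3′ with the seed in capitals. Of the 10 members 6 were matched, and the arms of miR-486 were left out before matching.
hsa-miR-142-3p: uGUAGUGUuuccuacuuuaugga
hsa-miR-142-5p: cAUAAAGUagaaagcacuacu
hsa-miR-223-3p: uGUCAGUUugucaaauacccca
hsa-miR-223-5p: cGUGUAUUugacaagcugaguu
hsa-miR-144-3p: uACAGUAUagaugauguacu
hsa-miR-144-5p: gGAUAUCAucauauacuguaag

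The hairpins that carry these arms are shown next, with the mature arms in capitals (5p first), so that it can be seen where each measured strand lies. On GRCh38.p14, MIR142 lies at chr17:58331232-58331318 on the minus strand, within the span of the noncoding host gene MIR142HG. MIR144 lies at chr17:28861533-28861618 on the minus strand, and MIR223 at chrX:66018870-66018979 on the plus strand.
MIR142: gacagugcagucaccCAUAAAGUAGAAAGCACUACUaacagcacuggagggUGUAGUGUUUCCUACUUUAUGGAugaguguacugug
MIR144: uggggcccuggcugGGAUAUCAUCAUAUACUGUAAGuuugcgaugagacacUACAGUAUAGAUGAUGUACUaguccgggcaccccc
MIR223: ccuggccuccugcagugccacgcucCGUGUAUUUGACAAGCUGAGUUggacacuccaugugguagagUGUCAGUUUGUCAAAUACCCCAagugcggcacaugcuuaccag

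The scanner software flagged 4 of the 10 members as detected, namely hsa-miR-142-3p, hsa-miR-142-5p, hsa-miR-223-3p and hsa-miR-451a. The flag is set where the signal of the best probe reaches 3 times its error, and it was set for 44.4% of all miRNAs on the array. The share of members was thus close to that of the array. Each member had 20 spots, spread over 2 to 4 probes. The background-subtracted spot signals of miR-142-3p ran from 1518 over a median of 2179 to 2345 (18 spots, 2 outlier spots left out). Those of miR-142-5p ran from 105 over 113 to 129 (19 spots). Those of miR-223-3p ran from 39.97 over 73.4 to 95.4 (19 spots), and those of miR-451a from 52.2 over 59.6 to 68.3 (19 spots). All 80 spots of these 4 miRNAs were well above background by the software. All 75 that were kept lay above 16.1, a level that 99% of the 1000 negative control spots did not exceed (their median was 0.0894). Having every spot well above background was not particular to them, since 56.7% of detected miRNAs had it.

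**Figure D1:**
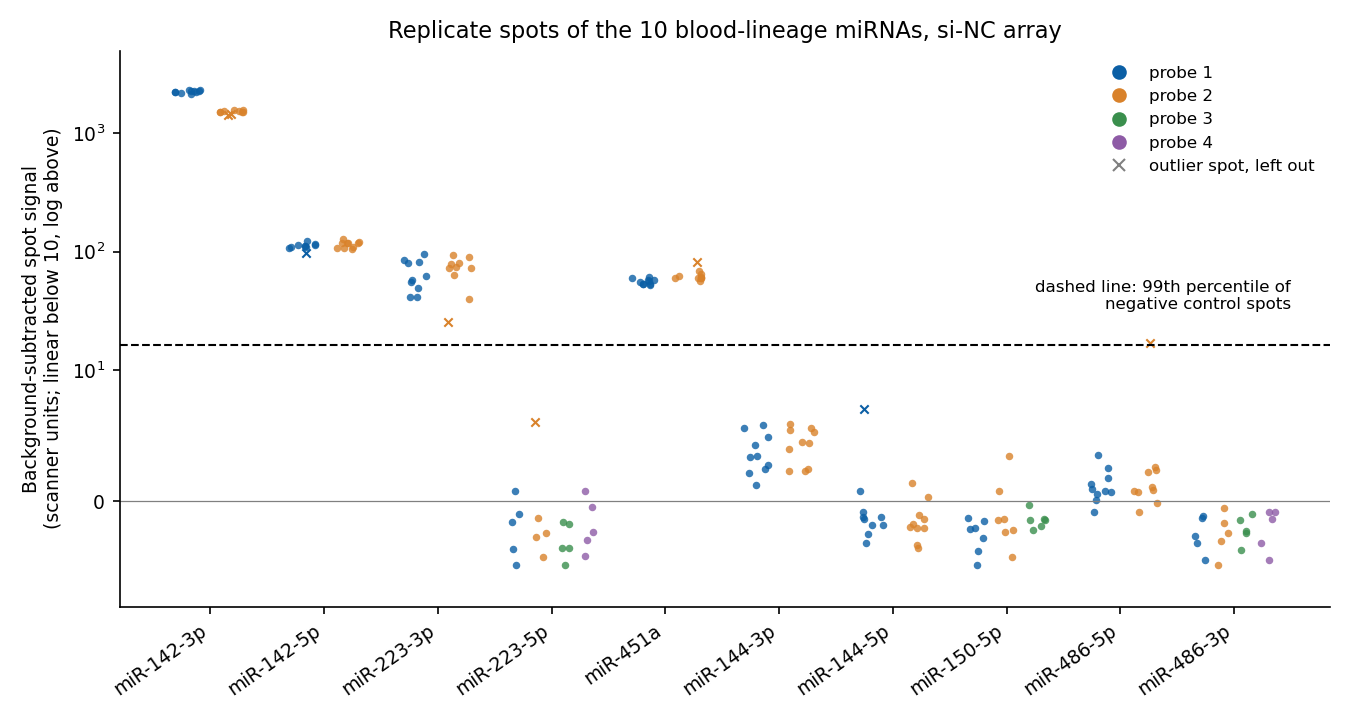
Background-subtracted signal (scanner units, linear below 10 and log above) of the replicate spots of each of the 10 members, coloured by probe, with outlier spots as crosses. The spots of miR-142-3p, miR-142-5p, miR-223-3p and miR-451a lie above the dashed line at 16.1, and the kept spots of the other 6 members lie around 0 and below it.

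The other 6 members, miR-223-5p, miR-144-3p, miR-144-5p, miR-150-5p, miR-486-5p and miR-486-3p, were not called detected. Their 117 kept spots ran from -4.86 to 5.90 with a median of -1.23, and none exceeded 16.1. Only 1 of their 120 spots was well above background (0.833%, against 1.40% of negative control spots), an outlier spot of miR-486-5p with a signal of 17.0. The highest was miR-144-3p, with kept spots from 1.25 over 4.16 to 5.90 (20 spots). All 20 were above 0, and its best probe stood at 1.60 times its error. Spots of miR-486-5p ran from -0.800 over 0.852 to 3.52 (19 spots), with 16 above 0. For miR-223-5p, miR-144-5p, miR-150-5p and miR-486-3p the medians were -2.43, -1.70, -1.69 and -2.32, and all their probes were below 0 in total signal. A probe of these 6 would have been called at 3 times its error, which was a total probe signal of 0.716 to 1.45. Lower amounts could not be seen on this array.

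Stricter rules for detection kept the same 4 members. All 80 of their spots were well above background, all 75 kept lay above 16.1, and their lowest total gene signal was 21.5. None of the rules below on spots or total signal could therefore have dropped a member. Where 50% or more of the spots of 1 probe had to be well above background, 37.9% of all miRNAs passed. The share was 34.8% where the median spot of 1 probe had to exceed 16.1, and 33.3% where the flag and a total gene signal of 5 or more were asked for. Where every probe of a miRNA had to pass on its spots, it was 29.4%. In the deposited log2 table, after quantile normalization by the authors, the 4 members had values of 9.39 (miR-142-3p), 5.47 (miR-142-5p), 4.76 (miR-223-3p) and 4.56 (miR-451a). The other 6 members were at the lowest value of that table, 2.32.

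The 4 calls lay well above the limit of 3. The best probe stood at 10.00 times its error for miR-142-3p, 9.74 times for miR-142-5p, 9.26 times for miR-223-3p and 9.19 times for miR-451a. Over the 1133 detected miRNAs the median of this ratio was 8.60 and the lowest was 3.00. The ratio levelled off near 10 for bright probes. It was 9.998 for miR-200b-3p, with a best probe signal of 4220, and 9.997 for miR-142-3p, with 282. Values above 9 therefore do not rank the calls by amount. By this ratio the 10 members were split into a group above 9 and a group at or below 1.60, with none near the limit.

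**Figure D2:**
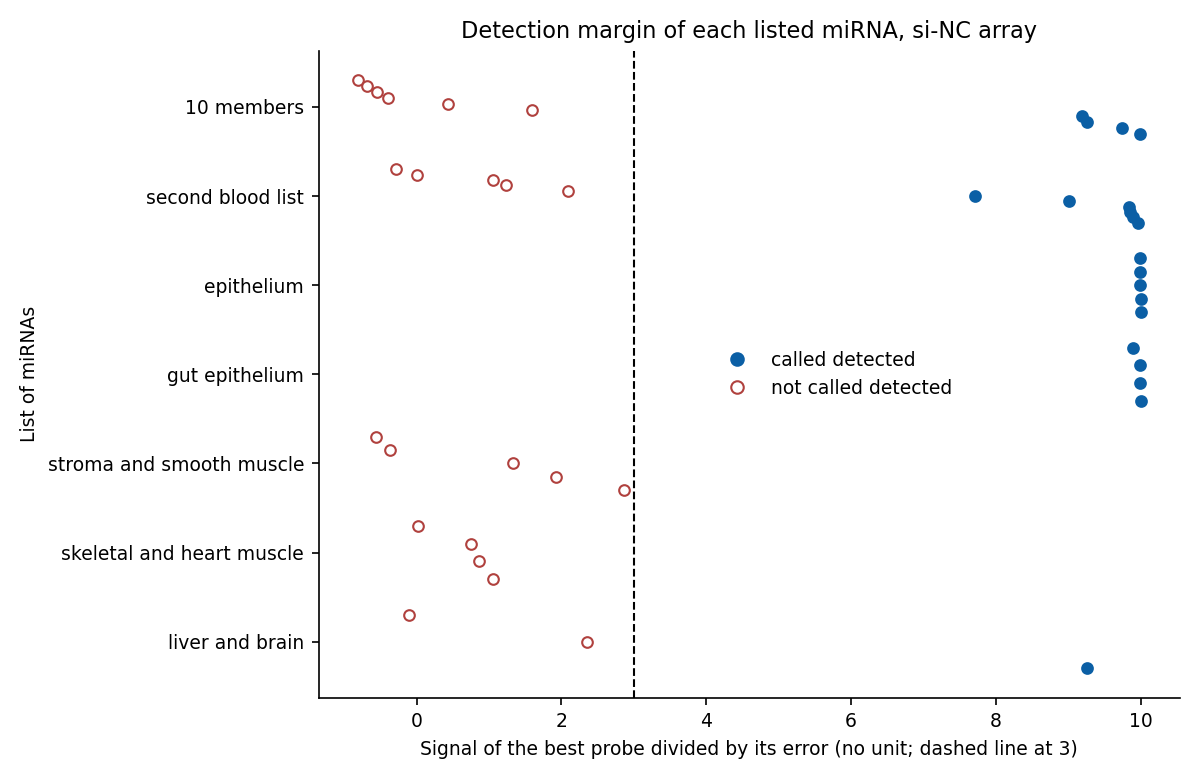
Signal of the best probe divided by its error (no unit) for the 10 members, the second list of blood miRNAs and 5 lists of tissue markers, with filled points for detected and open points for undetected miRNAs and a dashed line at the limit of 3. Of the members, 4 lie above 9 and 6 at or below 1.60.

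The arms of a hairpin were read next. miR-142 had both arms detected, with total gene signals (summed over probes, with the error of the software) of 695 ± 50.05 for the 3p arm and 41.8 ± 3.04 for the 5p arm. miR-223 had its 3p arm detected, at 25.4 ± 1.97, and its 5p arm not detected, with 0 of 20 spots well above background. miR-144 and miR-486 had neither arm detected. So 1 of the 4 hairpins with both arms among the members had both arms called. Over the array, both arms were called for 28.6% of 810 pairs of arms, 1 arm for 35.2% and neither for 36.2%. Where the 3p arm was called, the 5p arm was called too in 65.5% of 354 pairs. For miR-150, too, 1 arm was called, but not the strand usually studied. That strand, the 5p arm, had 0 of 20 spots well above background. The other, miR-150-3p, which is no member, had 20 of 20 and a total gene signal of 39.6 ± 2.42. Its 4 probes spread widely, with mean spot signals from 46.8 to 228. On the log2 scale they spanned 2.28, against a median of 1.18 over detected miRNAs with 4 probes. Arms are read by different probes, so the sizes of these signals were not compared as amounts.

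The locus of miR-144 and miR-451a gave an uneven picture. In RefSeq gene names, 4 miRNA genes lie within 10 kb of each other there, MIR451A, MIR451B (which overlaps MIR451A), MIR144 and MIR4732. miR-451a was detected, at a total gene signal of 21.5 ± 1.67, while miR-144-3p and miR-144-5p each had 0 of 20 spots well above background. miR-451b was detected at 19.9 ± 1.57, with 20 of 20 spots. Its kept spots ran from 43.7 over 54.3 to 61.8 (20 spots). miR-4732-5p and miR-4732-3p were not detected, with 1 of 20 spots each. The calls of the locus therefore came from miR-451a and miR-451b, whose genes overlap, and the other genes gave no call from either arm. The sequence of miR-451a was not among those matched, and whether these signals are independent of each other was not tested. Of the 6 pairs of genes in the locus, 1 had a detected arm in both genes, 4 in 1 gene and 1 in neither. These counts follow from which of the 4 genes had a detected arm, so the pairs are not 6 separate observations. The 4 split pairs all set MIR451A or MIR451B against MIR144 or MIR4732. Over the array, 27.0% of 555 pairs of miRNA genes within 10 kb had a detected arm in both, 37.3% in 1 and 35.7% in neither. Those pairs were taken by distance and need not share a precursor, so they are no like comparison for miR-144 and miR-451a. Near MIR142 lies MIR4736, whose product had 0 of 20 spots well above background. No other miRNA gene lay within 10 kb of MIR223 or MIR150.

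Agreement between probes was read for the 4 detected members, each of which had 2 probes. For miR-142-3p the probes had mean spot signals of 2260 ± 56.7 (SD, 10 spots) and 1541 ± 26.3 (SD, 8 spots). For miR-142-5p they had 113 ± 4.74 (SD, 9 spots) and 115 ± 7.66 (SD, 10 spots). For miR-451a they had 56.03 ± 2.83 (SD, 10 spots) and 61.4 ± 3.49 (SD, 9 spots). The 2 probes of miR-223-3p had 64.9 ± 19.3 (SD, 10 spots) and 73.97 ± 15.8 (SD, 9 spots). On the log2 scale the brighter probe exceeded the dimmer by 0.55 ± 0.01 (SE over replicate spots) for miR-142-3p, 0.13 ± 0.04 for miR-451a, 0.21 ± 0.18 for miR-223-3p and 0.03 ± 0.04 for miR-142-5p. The differences of miR-142-3p and miR-451a were more than 3 times their SE, and those of miR-223-3p and miR-142-5p were at most 1.15 times their SE. All 4 members had their probes within 1 log2 unit, against 80.8% of the 801 detected miRNAs with 2 or more probes past the same filter, whose median difference was 0.35. With 2 such probes it was 0.32 (683 miRNAs) and with 4 it was 1.18 (57 miRNAs).

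**Figure D3:**
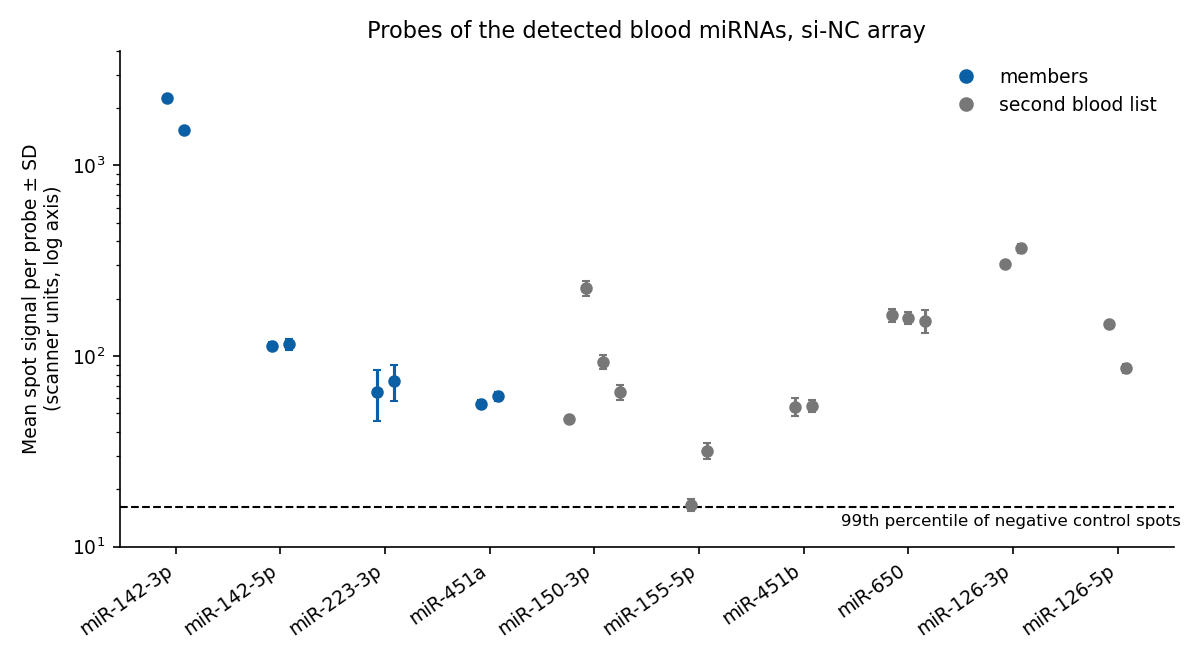
Mean background-subtracted spot signal (scanner units, log axis) of each probe of the 4 detected members (blue) and of the 6 detected miRNAs of the second blood list (grey), with the SD over replicate spots as bars. Among the members, which have 2 probes each, the widest gap is that of miR-142-3p, 0.55 on the log2 scale, and among grey miRNAs with 2 probes it is that of miR-155-5p, 0.94.

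Replicate spots of miR-223-3p scattered more than those of the other 3. Over the 8 probes of the detected members the median coefficient of variation (CV) was 5.37%. It was 1.71% and 2.51% for miR-142-3p, 4.19% and 6.63% for miR-142-5p, and 5.04% and 5.69% for miR-451a. For miR-223-3p it was 29.7% and 21.3%, in both probes. Over the 291 probes of the array with mean signals from 56.03 to 115, the range of the 6 dimmer member probes, the median CV was 7.94% with quartiles of 5.94% and 12.3%. A CV of 21.3% or more was seen in 15.5% of these, the 2 probes of miR-223-3p included. The scatter of miR-223-3p was thus wide but not unique. Of 81 miRNAs with 2 or more probes in that range, 10 had every probe in the range at or above 21.3%, miR-223-3p among them. After correction for position on the array the CVs of miR-223-3p were 27.9% and 21.1%. With normexp background correction, which adds an offset of 50 to all signals, they were 15.8% and 13.1%.

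**Figure D4:**
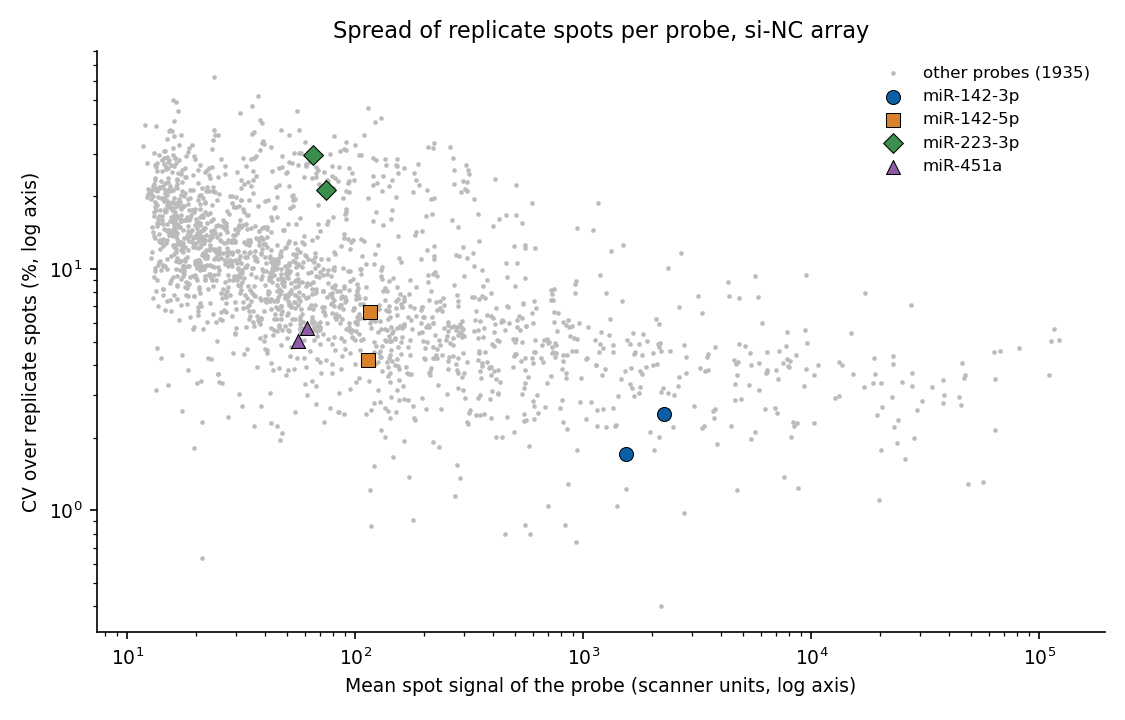
CV over replicate spots (%, log axis) against mean spot signal (scanner units, log axis) for 1943 probes (50% or more of the spots well above background), with the probes of the 4 detected members marked. The 2 probes of miR-223-3p lie at 29.7% and 21.3%, above the 6 probes of the other members, which lie at or below 6.63%.

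Sequence relatives of miR-142-3p, miR-142-5p and miR-223-3p were read for their own signals. The sequence of miR-451a, also detected, was not among those matched, so its relatives were not searched. Among the 2248 miRNAs of the array whose sequence was matched, the seed of miR-142-5p was shared by miR-5590-3p, which had 0 of 20 spots well above background. No other printed member shared its seed with another of these. The longest run of bases that miR-142-5p shared with any of 2247 other mature sequences was 10, with miR-4434 and miR-515-5p, neither of which was detected. For miR-142-3p the longest run was 8 bases. It was shared with miR-340-3p (25.9 ± 1.96), miR-4716-5p (14.1 ± 1.25), miR-3182 (9.55 ± 1.02) and miR-4640-3p (1.54 ± 0.503), all detected at the total gene signals given, and with miR-3685 and miR-892c-3p, not detected. For miR-223-3p it was also 8, with miR-301a-3p (1027 ± 73.6) and miR-301b-3p (117 ± 6.87), both detected and sharing bases 8 to 15 of miR-223-3p, and with miR-767-3p and miR-1537-5p, not detected. Whether any of these RNAs binds a member's probe was not tested.

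A second list of 11 blood miRNAs, kept apart from the members, had 6 called detected, which is near the 44.4% of the whole array. Besides miR-150-3p and miR-451b these were miR-126-3p at a total gene signal of 123 ± 8.75 and miR-126-5p at 42.6 ± 3.19, both made in endothelium and in blood progenitors. miR-650, whose gene lies in the immunoglobulin lambda locus, was at 58.1 ± 3.42 and miR-155-5p, induced in activated lymphocytes and macrophages, at 8.85 ± 0.943. Signals of miR-155-5p were near the negative control limit of 16.1. Of its 17 kept spots 13 exceeded it, and 1 of its 2 probes had a mean of 16.6. miR-155-3p, miR-342-3p, miR-342-5p, miR-4732-5p and miR-4732-3p were not detected. miR-342 is prominent in lymphocytes, and neither of its arms had a spot well above background. The probes of miR-650 lay within 0.10 ± 0.09 (SE) on the log2 scale and those of miR-451b within 0.01 ± 0.06. The gap was 0.28 ± 0.03 for miR-126-3p, 0.77 ± 0.03 for miR-126-5p and 0.94 ± 0.06 for miR-155-5p, and the 4 probes of miR-150-3p spanned 2.28 ± 0.07. The median total gene signal, with 0.1 standing for an undetected miRNA, was 0.1 over the members, 8.85 over this list and 0.1 over the array. These medians follow from the counts detected, the 8.85 being that of miR-155-5p, so they do not compare levels between the lists.

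Tissue markers gave the setting in which these signals were read. All 5 epithelial markers of the miR-200 family were detected, at total gene signals of 2576 to 9249, and so were all 4 gut epithelium markers (52.2 to 832). None of 5 stroma and smooth muscle markers and none of 4 skeletal and heart muscle markers was detected. Of these the stroma marker miR-199a-3p came closest, its best probe at 2.87 times its error, just under the limit of 3. Of 3 liver and brain markers, 1 was detected, miR-9-5p, at 22.1 ± 1.71. On the array 34.3% of miRNA spots were well above background and no miRNA spot was saturated.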

How the data were processed

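A 1-colour (Cy3) Agilent array (design on hg19) was read, for which the labels describe labelling of RNA and the study's methods labelling of cDNA. The authors extracted the deposited intensity of each spot with Feature Extraction 11.0.1.1, background-subtracted and not normalized between arrays. Its flags were used as deposited. The authors also deposited log2 values, quantile normalized in GeneSpring, which for the 4 detected members lay within -0.05 to 0.14 of the log2 total gene signal.

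Spots of human miRNA probes were kept and outlier spots (4.51%) left out. A probe passed the filter on dim signals where 50% or more of the spots were well above background. Probes were compared on mean log2 spot signals. The members and lists were chosen with earlier results of these data known. Named were all members, both blood lists, miRNAs with a shared seed or the longest shared run, and neighbouring genes within 10 kb, with tissue markers for the setting. Sequences and neighbours came from RefSeq GRCh38.p14. Sequences on the chromosome of miR-486 were left out before matching, and no neighbours of miR-486 were listed. Of the miRNAs on the array 2248 then had a sequence, and 1572 miRNA genes had a product on it. Alternatives were 5 detection rules, normexp (offset 50, limma 3.58.1 in R 4.3.3), outlier spots kept, no filter, position (16 blocks), and other references for the level of each member. Python 3.11.15 with pandas 2.3.3 was used. The calculations of the CV and of probe differences, but not the others, were tested on simulated data. The number of arrays limits the precision.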

Additional observations from a re-analysis of the deposited data

How the results depend on the processing

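Over 9 results, 43 alternative values were computed, of which 31 stayed within their limits (1.5 times for counts and the CV, 1 SD over replicate spots for levels) and 12 moved. The counts of detected members (4), of hairpins with both arms detected (1), of other blood miRNAs detected (6) and of members with probes within 1 log2 unit (4) were the same under each alternative tried for them. The deposited table repeats the detection flag, so it says nothing of stability. For the members the other detection rules say little of it either, since their kept spots already lay clearly on 1 side of each limit. Leaving out the filter could not change probe agreement, since all 8 probes of the detected members already passed it. The median CV of member probes, 5.37%, moved to 13.98% with no filter, where 12 probes entered in place of 8, and to 3.42% under normexp, which adds an offset to all signals. The other 10 moved values were levels of single members relative to the 75th percentile of spots. With the percentile over all miRNA spots each of the 4 levels rose by 2.44 on the log2 scale, since the reference fell from 143 to 26.3, so that the levels of miR-142-5p (-0.32), miR-223-3p (-1.09) and miR-451a (-1.29) became 2.12, 1.35 and 1.15. With normexp the changes ran from -0.44 to 0.50. The level of miR-142-3p (3.74) also moved to 3.56 in the deposited table and to 3.99 with its brighter probe. For the moves of levels with normexp and in the deposited table the cause was not tested. What can be said of the 6 undetected members is limited by their closeness to background.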
